A study of Mus musculus with 8 samples.

Results

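CHOP, the product of Ddit3, and the bZIP transcription factors that act with it were followed in mouse liver as a set of 10 genes. They were Ddit3, the C/EBP genes Cebpa, Cebpb, Cebpd and Cebpg, the stress-induced ATF genes Atf3, Atf4 and Atf5, and the membrane-bound factors Atf6 and Creb3l3. The members were chosen by name, though with earlier results of these data known. All 10 were found among the 52551 rows of the count tables. The data were 8 libraries made from livers of male C57BL/6 mice aged 6 weeks, 4 from PiZ/Chop-/- mice and 4 from PiZ mice. Both groups carried PiZ, which puts a human alpha-1 antitrypsin gene with the Z mutation into the mouse, so that misfolded protein is retained in the endoplasmic reticulum (ER) of hepatocytes. PiZ/Chop-/- mice lacked Chop in addition. The sources used here do not give which part of Ddit3 was removed, or in which cells. A wild-type group named in the design was not analysed here, so PiZ without CHOP was set against PiZ with CHOP. Libraries were made with QuantSeq, which reads messenger RNA at its 3' end. Total counts ran from 1850275 to 2375907 per PiZ/Chop-/- library and from 1650260 to 3064385 per PiZ library. Hepatocyte markers summed to between 88250 and 95450 read counts scaled to library size (CPM) in PiZ/Chop-/- libraries and between 87120 and 96840 CPM in PiZ libraries.

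All bZIP factors share a basic region that contacts DNA and a leucine zipper through which they bind as pairs, so the partner decides which sites are bound. CHOP pairs with C/EBP proteins and with ATF factors; its basic region departs from that of the other C/EBP proteins, and it can keep a C/EBP partner away from the usual C/EBP sites. During ER stress the kinase PERK phosphorylates eIF2alpha, which raises translation of ATF4, and ATF4 induces Ddit3, Atf3 and Trib3. ATF6 and CREB3L3 are held in the ER membrane and are cut in the Golgi to release active factors, so the transcript level of either gene does not measure its activity.

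Of the 10 genes 9 had enough counts to be tested, Atf3 being the exception. Ddit3 was called, which its deletion sets, and none of the other 8 was (edgeR quasi-likelihood test, Benjamini-Hochberg adjusted p below 0.05 over the 8669 genes tested). Over all genes tested 1.03% were called, 0.692% lower and 0.335% higher in PiZ/Chop-/- livers. DESeq2 and limma-voom also called 0 of the 8, and 1 of the 8, Atf6, had an unadjusted p below 0.05, as did 13.1% of all genes. Of the 8, 5 had a log2 fold change below 0, with a median of -0.34, against 50.2% of all genes tested and a median of -0.0016. Whether separate mice gave the libraries is not stated in the labels, so each p-value measures variation among libraries that may be technical. In whole liver, fewer cells of a type and less RNA per cell cannot be told apart.

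**Figure D1:**
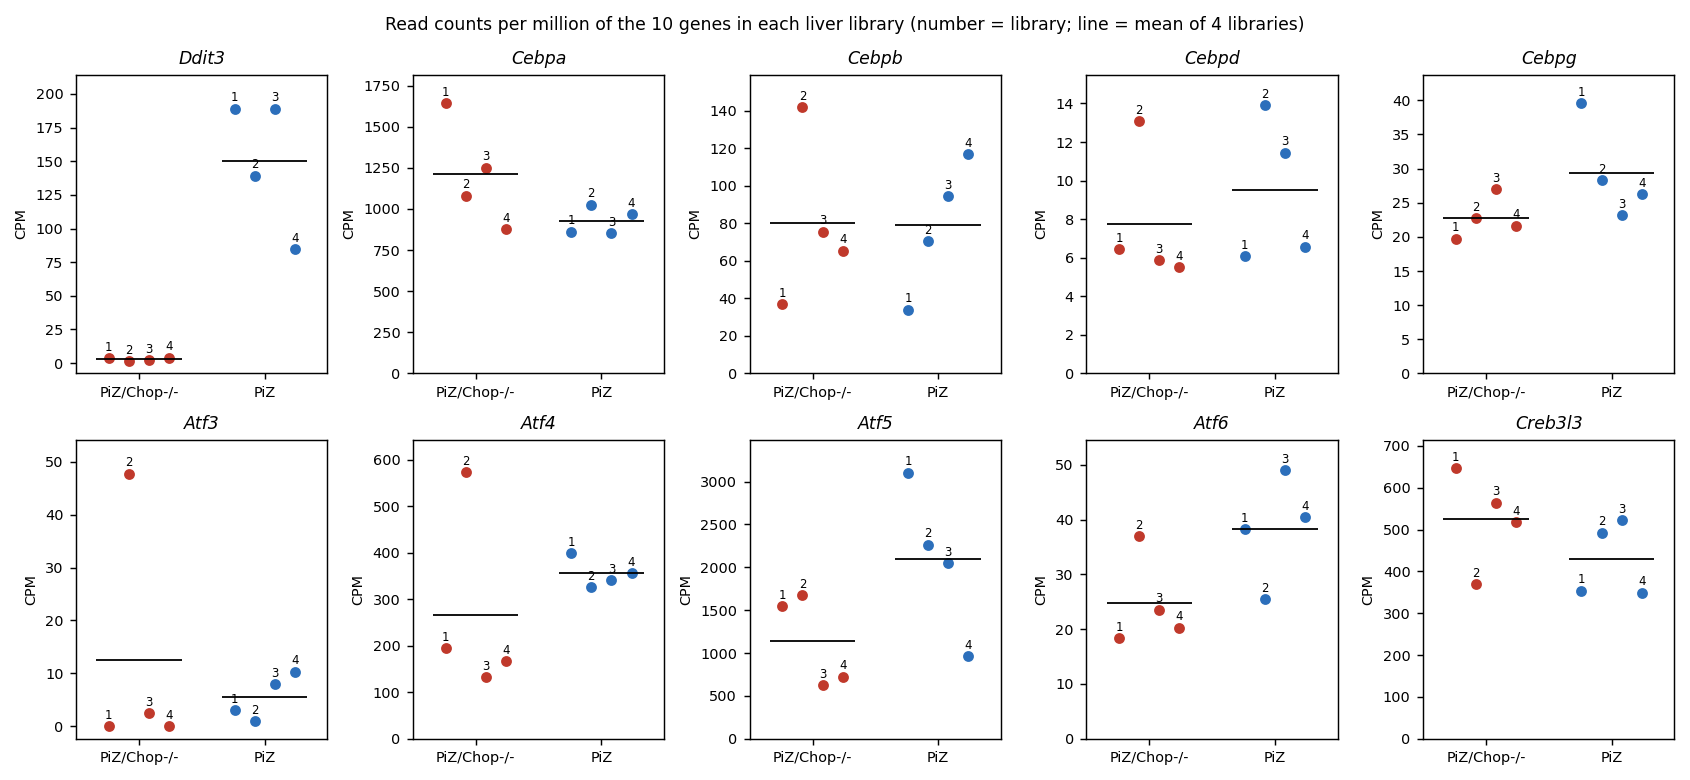
CPM of the 10 genes (vertical axes, linear, from 0) in each of 4 PiZ/Chop-/- libraries (left, red) and 4 PiZ libraries (right, blue), numbered by library, with a line at the group mean. Ddit3 lay at 1.71 to 4.15 CPM in PiZ/Chop-/- libraries and at 84.5 to 189 CPM in PiZ libraries, and PiZ/Chop-/- library 2 was the highest of its group for Cebpb, Cebpd, Atf3, Atf4, Atf5 and Atf6.

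Ddit3 (ENSMUSG00000025408, chr10:127290774-127296288, plus strand; positions of genes are of mm10) was close to absent from PiZ/Chop-/- livers. It had 8, 3, 5 and 9 reads in PiZ/Chop-/- libraries 1 to 4, against 311, 290, 595 and 180 reads in PiZ libraries 1 to 4. Every library followed its label, and the groups did not overlap, as they did not for 7.88% of all genes tested. The mean was 3.00 ± 1.12 CPM in PiZ/Chop-/- livers and 151 ± 49.9 CPM in PiZ livers (SD, n = 4 each), that is a log2 fold change of -5.60 (SE 0.34, edgeR adjusted p = 2.34e-07), or 48.5-fold lower. Since the reads come from the 3' end, those left in PiZ/Chop-/- livers do not show whether a deleted exon is read.

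The last exon of Ddit3 meets that of Mars, the methionyl-tRNA synthetase gene, tail to tail on opposite strands, with 68 bases in common at the 3' end where this method reads. Mars had 13, 7, 7 and 11 reads in the PiZ/Chop-/- libraries, against 80, 112, 176 and 146 in the PiZ libraries, with no overlap between the groups. Its log2 fold change was -3.60 (SE 0.26, edgeR adjusted p = 8.06e-07), or 12.1-fold lower. The sources used here do not give the strand setting of the counting, so whether reads from the shared bases were told apart is not known. Mbd6, the nearest coding gene on the other side of Ddit3 at 1756 bases and named after its values were seen, had 77 reads over the PiZ/Chop-/- libraries and 68 over the PiZ libraries (log2 fold change 0.30, SE 0.38, edgeR adjusted p = 0.787).

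Promoter windows from 250 bases before to 50 bases after the start of a gene were taken from RefSeq (GRCm38.p6), and 8 of the 10 genes had at least 1, for 10 windows in all. They were searched on both strands for a C/EBP-ATF composite element (TGATGNAAT, the site of pairs such as CHOP or C/EBP with ATF4), a cAMP response element (TGACGTCA), a palindromic C/EBP site (TTGCNNAA) and an AP-1 site (TGANTCA). Of all 32851 windows, 0.965% held the composite element, 1.79% the cAMP response element, 10.8% the C/EBP site and 7.81% the AP-1 site. No window of the 10 genes held an exact match to any of the first 3, and the AP-1 letters stood in 1 window each of Ddit3 and Creb3l3. Sites outside the windows, or with a letter changed, were not searched. Absence here does not show that a gene lacks such a site. The window of Ddit3 (chr10:127290543-127290842, plus strand) is shown because Ddit3 is the deleted gene, and that of Nupr1 (chr7:126625421-126625720, minus strand) because Nupr1 had the largest fall among the stress-response targets described below. Capitals mark the AP-1 letters in Ddit3, which begin 242 bases before the start, and the composite element in Nupr1, read on the opposite strand, which begins 111 bases before the start.
Ddit3: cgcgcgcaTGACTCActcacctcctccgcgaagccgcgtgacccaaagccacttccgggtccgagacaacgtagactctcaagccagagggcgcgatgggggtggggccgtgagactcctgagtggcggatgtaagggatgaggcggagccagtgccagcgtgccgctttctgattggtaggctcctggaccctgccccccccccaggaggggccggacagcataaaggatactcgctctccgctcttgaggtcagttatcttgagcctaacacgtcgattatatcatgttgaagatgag
Nupr1: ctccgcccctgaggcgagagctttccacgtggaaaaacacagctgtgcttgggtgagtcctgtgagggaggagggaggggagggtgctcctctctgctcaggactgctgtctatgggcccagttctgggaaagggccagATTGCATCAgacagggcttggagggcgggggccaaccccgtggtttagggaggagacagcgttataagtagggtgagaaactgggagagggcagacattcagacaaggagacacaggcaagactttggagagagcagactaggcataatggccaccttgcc
These matches describe letters within the windows, and binding was not measured. Nupr1 was the only target gene whose window was examined by itself, and it was picked for its fall. A link between its match and its fall was not tested.

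The C/EBP genes encode the classical partners of CHOP, and none passed the test. Cebpa (ENSMUSG00000034957, chr7:35119293-35121928), which drives the mature hepatocyte program, had 1643, 1081, 1251 and 879 CPM in PiZ/Chop-/- libraries 1 to 4. In PiZ libraries 1 to 4 it had 862, 1026, 852 and 969 CPM. The first 3 PiZ/Chop-/- libraries lay above every PiZ library and the fourth lay among them. The log2 fold change was 0.39 (SE 0.21, edgeR adjusted p = 0.447), with means of 1214 ± 324 CPM in PiZ/Chop-/- livers and 927 ± 84.5 CPM in PiZ livers (SD, n = 4 each).

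Cebpb (ENSMUSG00000056501, chr2:167688915-167690418), induced in the acute-phase response and in regeneration, had 36.8, 142, 75.6 and 65.4 CPM in the PiZ/Chop-/- libraries. It had 34.1, 70.6, 94.4 and 117 CPM in the PiZ libraries. Both groups covered much the same range, and PiZ/Chop-/- library 2 was the highest of all 8. The means were 80.0 ± 44.6 CPM in PiZ/Chop-/- livers and 79.0 ± 35.4 CPM in PiZ livers (SD, n = 4 each), that is a log2 fold change of 0.0047 (SE 0.45, edgeR adjusted p = 0.998). Its sign was not stable: scaling by library size alone gave -0.087, leaving out PiZ/Chop-/- library 2 gave -0.42 and leaving out PiZ library 1 gave -0.24. Tmem189, which lies across 908 bases of Cebpb on the other strand but not its 3' end, had 0.34 (SE 0.30, edgeR adjusted p = 0.678).

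Cebpd (ENSMUSG00000071637, chr16:15887286-15891031), another acute-phase C/EBP gene, was read little. It had 14, 23, 12 and 12 reads in PiZ/Chop-/- libraries and 10, 29, 36 and 14 reads in PiZ libraries, with overlap between the groups. On the log2 scale the fold change was -0.33 (SE 0.39, edgeR adjusted p = 0.767), with 7.73 ± 3.58 CPM in PiZ/Chop-/- livers and 9.51 ± 3.82 CPM in PiZ livers (SD, n = 4 each). The value was -0.69 without PiZ/Chop-/- library 2. Spidr runs across the 3' end of Cebpd on the other strand, and it had 3 reads over the PiZ/Chop-/- libraries and 11 over the PiZ libraries.

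Cebpg (ENSMUSG00000056216, chr7:35046422-35056573), a short C/EBP protein without an activation domain that pairs with ATF4, is the neighbour of Cebpa on chromosome 7, 62720 bases away and on the opposite strand. It had 19.8, 22.7, 27.0 and 21.7 CPM in PiZ/Chop-/- libraries, against 39.5, 28.3, 23.2 and 26.3 CPM in PiZ libraries. PiZ library 3 lay below PiZ/Chop-/- library 3, so the groups overlapped. For this gene the log2 fold change was -0.35 (SE 0.24, edgeR adjusted p = 0.559), with 22.8 ± 3.07 CPM in PiZ/Chop-/- livers and 29.3 ± 7.11 CPM in PiZ livers (SD, n = 4 each).

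Because bZIP proteins compete for partners, the reads of the other C/EBP genes were also set against those of Cebpa in the same library, a ratio that does not depend on how libraries are scaled. Cebpg reads came to 1.20%, 2.10%, 2.16% and 2.46% of Cebpa reads in PiZ/Chop-/- libraries 1 to 4, against 4.59%, 2.76%, 2.72% and 2.71% in PiZ libraries 1 to 4. All 4 PiZ/Chop-/- ratios were below all 4 PiZ ratios, though neither Cebpg nor Cebpa alone kept the groups apart. Set over Cebpa reads in the same way, 8.47% of 8668 genes tested kept the groups apart, 8.14% with PiZ/Chop-/- lower and 0.323% with PiZ/Chop-/- higher. On the log2 scale the ratio was -5.71 ± 0.46 in PiZ/Chop-/- livers and -5.01 ± 0.37 in PiZ livers (SD, n = 4 each), a difference of -0.70.

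For Cebpd the log2 ratio to Cebpa was -7.35 ± 0.71 in PiZ/Chop-/- livers and -6.69 ± 0.56 in PiZ livers, and for Cebpb it was -4.05 ± 1.07 in PiZ/Chop-/- livers and -3.69 ± 0.74 in PiZ livers (SD, n = 4 each). These pairs of groups overlapped, and the Cebpb difference of -0.36 was 0.11 without PiZ/Chop-/- library 1. The ratios were not tested. They compare read counts, not the amounts of the proteins.

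**Figure D2:**
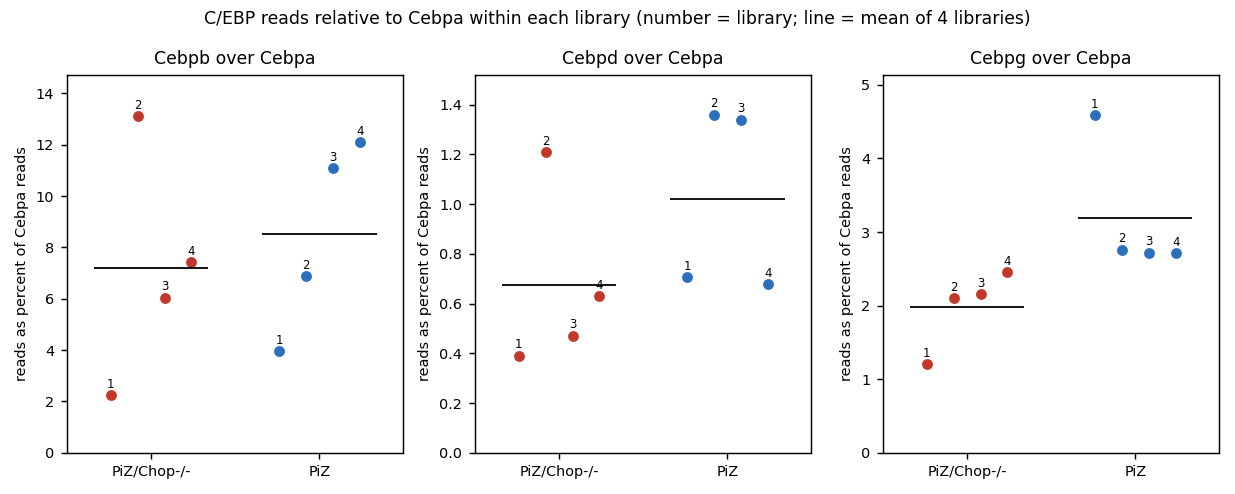
Reads of Cebpb, Cebpd and Cebpg as a percent of Cebpa reads (vertical axes, from 0) in each PiZ/Chop-/- library (left, red) and PiZ library (right, blue), numbered by library, with a line at the group mean. The Cebpg percents were 1.20 to 2.46 in PiZ/Chop-/- libraries and 2.71 to 4.59 in PiZ libraries, while the groups overlapped for Cebpb and Cebpd.

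Atf4 (ENSMUSG00000042406, chr15:80255184-80257541) encodes the main effector of the integrated stress response and lies upstream of Ddit3. It had 195, 573, 132 and 168 CPM in PiZ/Chop-/- libraries 1 to 4, against 400, 327, 341 and 356 CPM in PiZ libraries 1 to 4. Library 2 of the PiZ/Chop-/- group was the highest of all 8, and the other 3 were the lowest of all 8. With all libraries the means were 267 ± 206 CPM in PiZ/Chop-/- livers and 356 ± 31.5 CPM in PiZ livers (SD, n = 4 each), that is a log2 fold change of -0.42 (SE 0.42, edgeR adjusted p = 0.729). Without PiZ/Chop-/- library 2 Atf4 was called lower, at -1.11 (SE 0.21, edgeR adjusted p = 0.0141), in a fit where 1.82% of 9009 genes were called, 1.10% lower and 0.722% higher. It was the only member besides Ddit3 called in that fit, and with any other single library left out Atf4 was not called.

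Atf3 (ENSMUSG00000026628, chr1:191170296-191218039), an early stress-induced repressor and a target of ATF4, was too sparse to test. It had 0, 84, 5 and 0 reads in PiZ/Chop-/- libraries, against 5, 2, 25 and 22 reads in PiZ libraries. Library 2 held nearly all the Atf3 reads of the PiZ/Chop-/- group, and 0 reads allow a level of up to 1.38 CPM in libraries 1 and 4. The mean was 12.6 ± 23.5 CPM in PiZ/Chop-/- livers and 5.57 ± 4.32 CPM in PiZ livers (SD, n = 4 each). The log2 ratio of these means was 1.17 with library 2 and -2.77 without it.

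Atf5 (ENSMUSG00000038539, chr7:44812256-44816658), a stress-induced factor abundant in liver that is tied to the mitochondrial unfolded protein response, had 1546, 1678, 627 and 725 CPM in PiZ/Chop-/- libraries. It had 3105, 2264, 2047 and 963 CPM in PiZ libraries. PiZ library 4 lay among the PiZ/Chop-/- libraries and the other 3 lay above all of them. The log2 fold change was -0.87 (SE 0.40, edgeR adjusted p = 0.387), with 1144 ± 545 CPM in PiZ/Chop-/- livers and 2095 ± 881 CPM in PiZ livers (SD, n = 4 each). Nup62 shares 571 bases with Atf5 on the other strand, away from its 3' end, and had -0.62 (SE 0.37, edgeR adjusted p = 0.504). Of 12 genes of the mitochondrial unfolded protein response, chaperones and proteases, 0 were called by edgeR, DESeq2 or limma-voom and 9 were below 0, with a median of -0.23. At an unadjusted edgeR p below 0.05, held by 13.1% of all genes, 2 of the 12 were lower. They were Lonp1, a matrix protease, at -0.61 (SE 0.18, edgeR adjusted p = 0.139), and Hspd1, the matrix chaperonin, at -0.47 (SE 0.21, edgeR adjusted p = 0.347).

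Atf6 (ENSMUSG00000026663, chr1:170704674-170867771), the ER membrane sensor that induces chaperone genes once cut, had 18.4, 37.0, 23.6 and 20.3 CPM in PiZ/Chop-/- libraries. It had 38.3, 25.5, 49.0 and 40.4 CPM in PiZ libraries. PiZ/Chop-/- library 2 lay among the PiZ libraries, and the other 3 of its group lay below all 4. It had a log2 fold change of -0.64 (SE 0.27, edgeR adjusted p = 0.326), with 24.8 ± 8.38 CPM in PiZ/Chop-/- livers and 38.3 ± 9.71 CPM in PiZ livers (SD, n = 4 each). Without library 2 it was -0.89 (edgeR adjusted p = 0.117).

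Creb3l3 (ENSMUSG00000035041, chr10:81084324-81098874) encodes the ER membrane factor CREBH, a liver factor of lipid metabolism, fasting and the acute phase. It had 647, 371, 565 and 518 CPM in PiZ/Chop-/- libraries, against 354, 493, 522 and 349 CPM in PiZ libraries. The groups overlapped, and library 2 was the lowest of the PiZ/Chop-/- group. On the log2 scale the fold change was 0.29 (SE 0.22, edgeR adjusted p = 0.605), with 525 ± 116 CPM in PiZ/Chop-/- livers and 430 ± 90.8 CPM in PiZ livers (SD, n = 4 each).

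**Figure D3:**
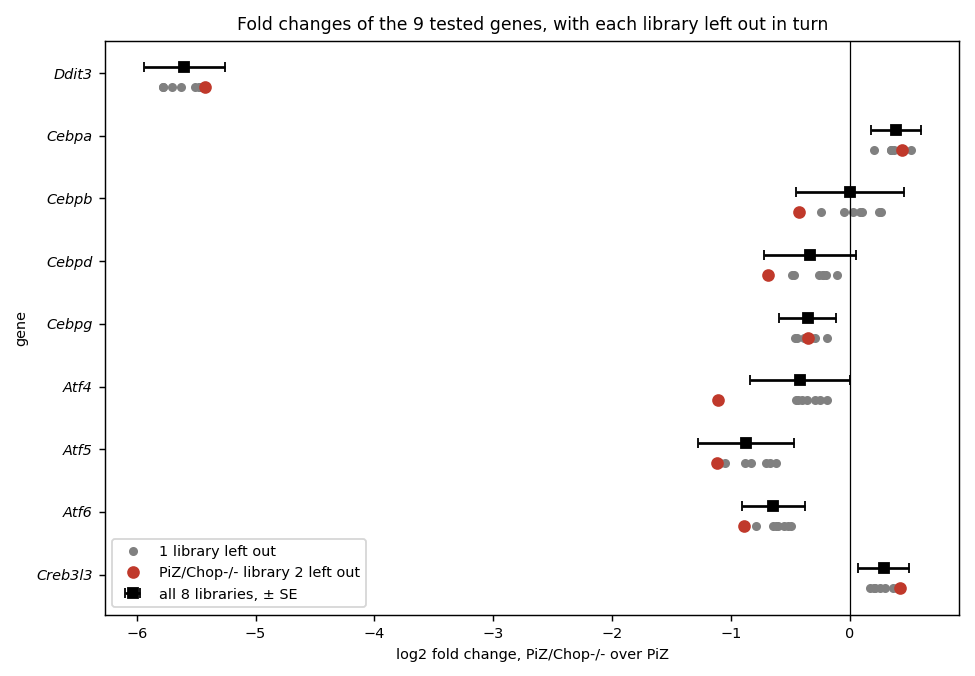
Log2 fold change of PiZ/Chop-/- over PiZ (horizontal axis) for the 9 tested genes, with all 8 libraries (black squares, ± SE), with any 1 library left out (grey points) and with PiZ/Chop-/- library 2 left out (red points). Leaving out that library moved Atf4 to -1.11, while Ddit3 ran from -5.78 to -5.43 over the 8 fits.

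Target genes of these factors were read from lists drawn up around the members, also with earlier results of these data known. Of 28 targets of the integrated stress response and CHOP 20 had enough counts to be tested, 2 fell, none rose, and 16 of the 20 were below 0, with a median of -0.39. Nupr1, a small chromatin protein induced by stress, had 7.35, 15.4, 4.91 and 7.37 CPM in PiZ/Chop-/- libraries, against 85.8, 86.0, 152 and 207 CPM in PiZ libraries. Its log2 fold change was -3.94 (SE 0.39, edgeR adjusted p = 0.000243), the groups lying far apart. Trib3, a pseudokinase that CHOP and ATF4 induce and that restrains both, had 39.5, 12.5, 18.7 and 19.8 CPM in PiZ/Chop-/- libraries, against 153, 112, 204 and 390 CPM in PiZ libraries. No PiZ/Chop-/- library came near the lowest PiZ library. The log2 fold change of Trib3 was -3.23 (SE 0.47, edgeR adjusted p = 0.0140), which no longer passed once PiZ/Chop-/- library 3 (0.0577) or 4 (0.0680) was left out.

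Other classical targets did not pass. Ppp1r15a, which encodes GADD34, the eIF2alpha phosphatase subunit that CHOP induces, had 0.33 (SE 0.42, edgeR adjusted p = 0.787), and -0.11 without PiZ/Chop-/- library 2. Chac1, a glutathione-degrading enzyme downstream of ATF4 and CHOP, had 20, 4, 6 and 11 reads in PiZ/Chop-/- libraries, against 4, 2, 2 and 13 reads in PiZ libraries, too few to test. Slc3a2, the heavy chain of amino acid transporters and an ATF4 target, had -0.82 (SE 0.24, edgeR adjusted p = 0.132), and was called without PiZ/Chop-/- library 2 (-1.03, edgeR adjusted p = 0.0383). The median of the list was -0.76 without that library. Of 18 sensors and regulators upstream of CHOP 15 were tested, 0 were called by edgeR, DESeq2 or limma-voom and 11 were below 0, with a median of -0.15. Of the 15, 3 had an unadjusted edgeR p below 0.05 (2 lower and 1 higher), as did 13.1% of all genes. Eif2ak3, the gene of PERK, had -0.75 (SE 0.39, edgeR adjusted p = 0.426). Slc3a2, Eif2ak3, Lonp1 and Hspd1 were named after their values were seen.

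All 14 ATF6 targets, ER chaperones and folding or degradation factors, had a log2 fold change below 0 in each of the 4 scalings tried, with a median of -0.56 by TMM. None was called by edgeR, DESeq2 or limma-voom. Of the 14, 2, Hspa5 and Calr, had an unadjusted edgeR p below 0.05, as did 13.1% of all genes. Hspa5, the chaperone BiP, had 2652, 5673, 1810 and 1993 CPM in PiZ/Chop-/- libraries, against 6993, 4708, 5533 and 7236 CPM in PiZ libraries. PiZ/Chop-/- library 2 lay within the PiZ range and the other 3 lay below it. The log2 fold change was -1.01 (SE 0.33, edgeR adjusted p = 0.206). Without library 2, Hspa5 (-1.51, edgeR adjusted p = 0.00672), Manf (-1.58, 0.0143) and Creld2 (-1.73, 0.0349), both secreted or luminal ER stress proteins, were called lower, and the median was -0.79. With any other single library left out, Hspa5, Manf and Creld2 were not called. Library 2 was the highest of its group for Hspa5 and Manf, so the calls without it depend on that choice. Calr, Manf and Creld2 were named after their values were seen. With no filter on low counts Hspa5 passed with all 8 libraries (SE 0.20, edgeR adjusted p = 0.000255). That fit called 357 of 19847 genes, against 89 of 8669 with the filter.

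Of 24 liver genes known as C/EBP targets 1 fell, Lcn2, the acute-phase protein lipocalin 2, and none rose; 15 were below 0, with a median of -0.06. Lcn2 had 17.5, 7.96, 18.2 and 27.6 CPM in PiZ/Chop-/- libraries, against 147, 85.0, 75.4 and 50.2 CPM in PiZ libraries. All PiZ/Chop-/- libraries lay below all PiZ libraries. Its log2 fold change was -2.30 (SE 0.38, edgeR adjusted p = 0.0113), which no longer passed once PiZ/Chop-/- library 1 (0.0688) or 3 (0.0625) was left out. At an unadjusted edgeR p below 0.05, held by 13.1% of all genes, there were 6 of the 24, 2 lower and 4 higher. The median was 0.04 without PiZ library 4. Igfbp1, a fasting-induced binding protein of insulin-like growth factors named after its values were seen, had -0.82 (SE 0.71, edgeR adjusted p = 0.686) with all libraries. It was called lower without PiZ/Chop-/- library 2 (-1.98, edgeR adjusted p = 0.00204), where it had 1819 CPM, against 209 to 417 CPM in the others of its group.

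Of 20 CREB3L3 targets 17 were tested, 1 fell, none rose and 12 were above 0, with a median of 0.28; DESeq2 called the same number lower and 1 higher. The fall was that of Apcs, serum amyloid P, an acute-phase gene. It had 90.1, 92.7, 116 and 123 CPM in PiZ/Chop-/- libraries, against 471, 221, 228 and 368 CPM in PiZ libraries, with no overlap. It had a log2 fold change of -1.61 (SE 0.25, edgeR adjusted p = 0.00326). At an unadjusted edgeR p below 0.05, held by 13.1% of all genes, there were 4 of the 17, 1 lower and 3 higher. Apoa5, which enhances plasma triglyceride clearance and was named after its values were seen, had 0.66 (SE 0.19, edgeR adjusted p = 0.137), and was called higher without PiZ library 4 (0.77, edgeR adjusted p = 0.0490). Summed Kupffer cell and macrophage markers ran from 859 to 1033 CPM in PiZ/Chop-/- libraries and from 1117 to 1598 CPM in PiZ libraries. Of the 14 markers 12 were below 0, 0 were called by edgeR, DESeq2 or limma-voom and none was at 0 counts. At an unadjusted edgeR p below 0.05, held by 13.1% of all genes, 5 were lower. Cd5l had the highest level of these markers, with means of 314 CPM in PiZ/Chop-/- livers and 514 CPM in PiZ livers. Timd4 (0.22, SE 0.35) and Cd163 (0.60, SE 0.49), named after their values were seen, were above 0. The part of the macrophage markers in the falls of Nupr1, Trib3, Lcn2 and Apcs was not tested.

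PiZ/Chop-/- library 2, without which Atf3 and Cebpb changed sign and Atf4 was called lower, also stood apart in immediate early genes. Their summed level was 1797 CPM there, against 181 to 247 CPM in the other PiZ/Chop-/- libraries and 214 to 332 CPM in PiZ libraries. Egr1, an immediate early zinc finger factor named after its values were seen, had 1236 reads in library 2, against 22, 10 and 15 in PiZ/Chop-/- libraries 1, 3 and 4 and 15, 91, 59 and 25 in PiZ libraries. Neutrophil markers summed to 87.0 CPM in library 2, to 5.05 to 9.82 CPM in the others of its group and to 11.3 to 35.1 CPM in PiZ libraries. That sum rested on S100a8 and S100a9 among its 10 genes. Over all 8 libraries Ngp had 29 reads, Retnlg 7, Csf3r 4, Camp 3, Cxcr2 3, Mpo 2, Ly6g 1 and Elane 0. ATF6 targets summed to 11210 CPM in library 2, to 5169 to 6678 CPM in the other PiZ/Chop-/- libraries and to 9498 to 13100 CPM in PiZ libraries. Hspa5 alone made up 5673 CPM of that sum in library 2. It made up 1810 to 2652 CPM in the other PiZ/Chop-/- libraries and 4708 to 7236 CPM in PiZ libraries. The part of these genes in the Atf3, Cebpb and Atf4 values was not tested. Over all genes tested, PiZ library 4 was the least like its own group, with a mean correlation of log2 CPM of 0.914. That value was 0.931 for PiZ library 1, 0.932 for PiZ/Chop-/- library 2 and 0.939 to 0.951 for the others.

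**Figure D4:**
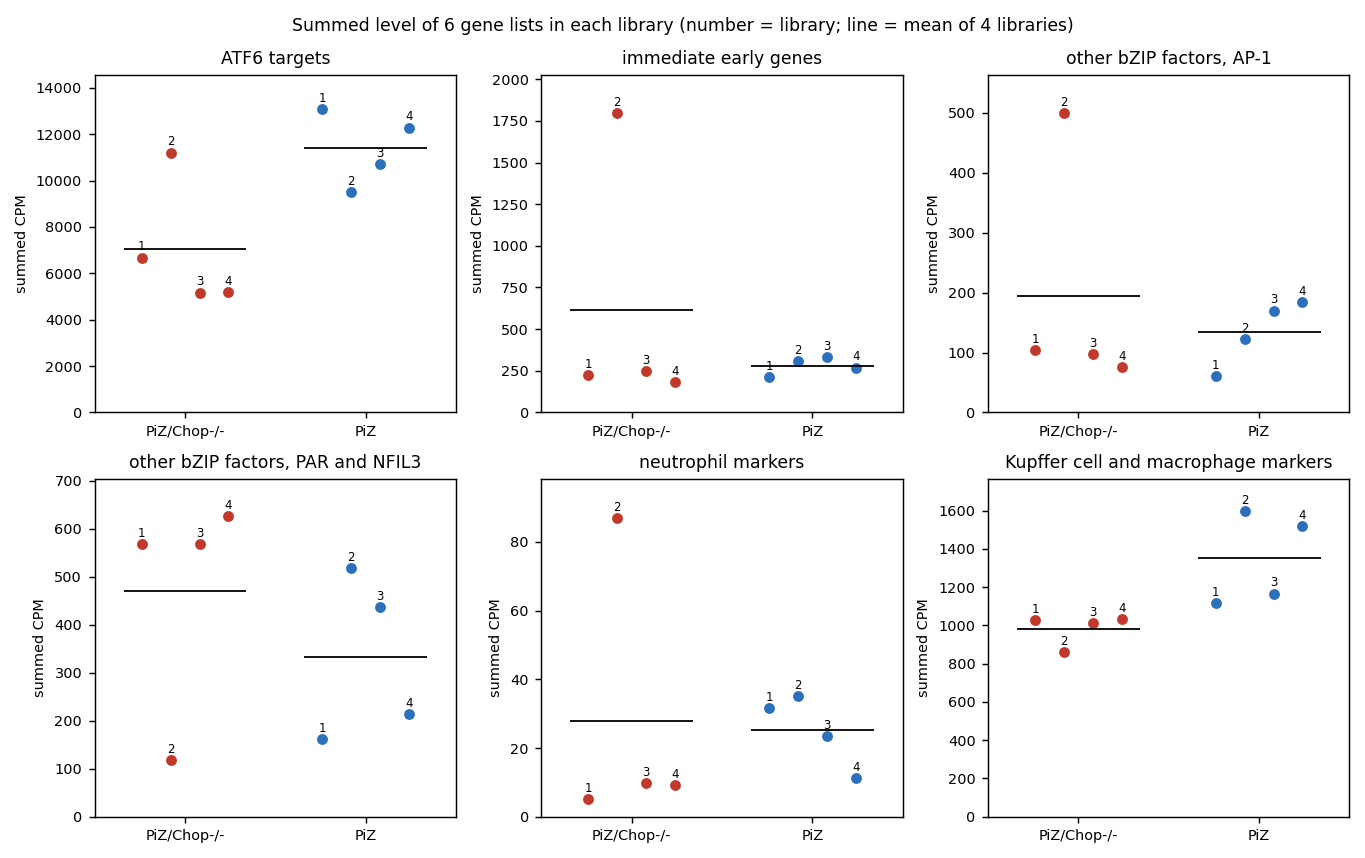
Summed CPM of 6 gene lists (vertical axes, linear, from 0) in each PiZ/Chop-/- library (left, red) and PiZ library (right, blue), numbered by library, with a line at the group mean. PiZ/Chop-/- library 2 lay outside the range of the rest of its group in every panel. It was flagged by Dixon's ratio, described below, in every panel but that of ATF6 targets. It lay higher for ATF6 targets (11210 CPM, of which Hspa5 was 5673), immediate early genes (1797), AP-1 (500.2) and neutrophil markers (87.0). It lay lower for the sum of PAR and NFIL3 factors (118) and for macrophage markers (859). Nfil3 by itself was higher there (33.0 CPM) than in the rest of its group.

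The bZIP family outside the 10 genes showed no call either, by edgeR, DESeq2 or limma-voom. Of its 29 tested genes 2, Xbp1 and Bach1, had an unadjusted edgeR p below 0.05, as did 13.1% of all genes. Of 19 further ATF, CREB, BATF and related genes, with Xbp1 and Cebpe among them, 13 were tested and 9 were above 0 (8 when scaled by library size alone), with a median of 0.17. Without PiZ/Chop-/- library 2, 14 were tested and 8 were above 0, with a median of 0.08. Xbp1, whose spliced form is the effector of the IRE1 branch of the unfolded protein response, had 135, 146, 123 and 205 CPM in PiZ/Chop-/- libraries, against 77.9, 98.0, 107 and 111 CPM in PiZ libraries. Every PiZ/Chop-/- library was above every PiZ library, yet the log2 fold change of 0.63 (SE 0.20) missed the threshold (edgeR adjusted p = 0.189). Counts per gene do not tell its spliced from its unspliced form.

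Of 7 AP-1 genes 4 were tested and all 4 were above 0, with a median of 0.59 that was -0.42 without PiZ/Chop-/- library 2. Jun, the AP-1 subunit, had 21.1, 160, 40.3 and 19.8 CPM in PiZ/Chop-/- libraries, against 9.73, 30.3, 34.3 and 39.9 CPM in PiZ libraries. The groups overlapped apart from library 2, and the log2 fold change was 1.05 (SE 0.80, edgeR adjusted p = 0.634). Fos, its partner, had 0, 24, 1 and 1 reads in PiZ/Chop-/- libraries, against 0, 1, 4 and 2 reads in PiZ libraries, too few to test.

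The PAR factor genes Dbp, Tef and Hlf and the gene of NFIL3, bZIP proteins tied to the circadian clock, were all tested and all 4 were above 0, with a median of 0.36. Without PiZ/Chop-/- library 2 the median was 0.62 and Nfil3 was at -0.47. Their summed level was 118 CPM in PiZ/Chop-/- library 2, against 567 to 627 CPM in the other PiZ/Chop-/- libraries and 162 to 518 CPM in PiZ libraries. The sum rested mostly on Tef, at 60.25 CPM in that library and 461 to 503.5 CPM in the others of its group. Nfil3 went the other way, at 33.0 CPM there and 4.6 to 10.6 CPM in the others of its group. Of 13 MAF and CNC factors 8 were tested and 6 were above 0 (4 when scaled by library size alone), with a median of 0.24. Bach1, a heme-regulated repressor of that family chosen after its values were seen, had 0.94 (SE 0.30, edgeR adjusted p = 0.184). It passed with no filter on low counts (edgeR adjusted p = 0.00594), a fit that called 357 of 19847 genes.

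**Figure D5:**
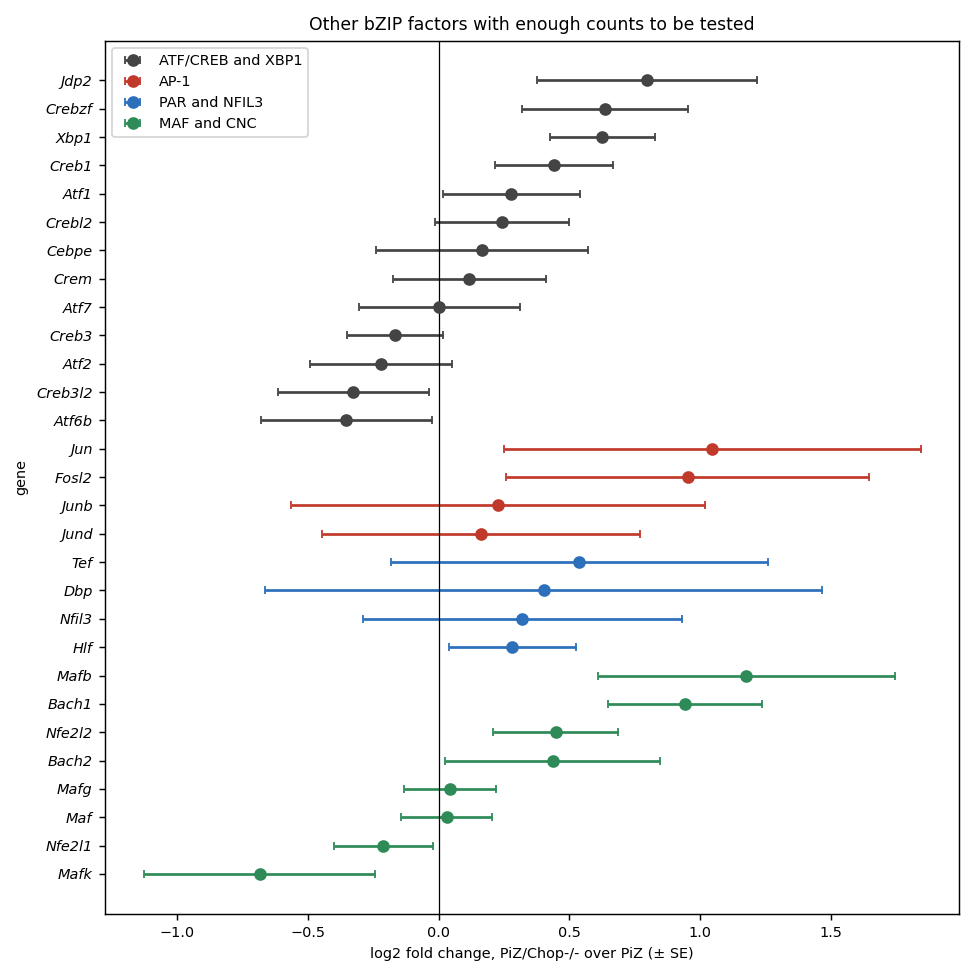
Log2 fold change of PiZ/Chop-/- over PiZ (horizontal axis, ± SE) for the bZIP genes outside the 10 members that had enough counts to be tested, coloured by family. Of the ATF/CREB and XBP1 genes 9 of 13 were above 0 (8 when scaled by library size alone), as were all 4 AP-1 genes (below 0 without PiZ/Chop-/- library 2) and all 4 PAR and NFIL3 genes (Nfil3 below 0 without that library), and none was called.

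Genes whose profile was most like that of a member were found by the root mean square difference of log2 CPM over the 8 libraries, each gene centred on its own mean, so that 0 is an identical profile. For Ddit3 the nearest were Ly6d (0.69), Ggt1 (0.69) and Abcc4 (0.85), against a median of 2.68 over all genes tested. Ly6d, a surface protein, had 4.60, 3.98, 9.82 and 2.76 CPM in PiZ/Chop-/- libraries, against 173, 112, 147 and 109 CPM in PiZ libraries. Ggt1, which cleaves extracellular glutathione, had 2.30, 0, 4.42 and 5.07 CPM in PiZ/Chop-/- libraries, against 91.2, 80.7, 126 and 104 CPM in PiZ libraries. Abcc4, an organic anion exporter, had 4.60, 2.84, 3.93 and 4.61 CPM in PiZ/Chop-/- libraries, against 56.6, 94.2, 67.4 and 112 CPM in PiZ libraries. As for Ddit3, no value of these genes in a PiZ/Chop-/- library came near a PiZ value, and since they were picked for that likeness this is a description.

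For the other members the distances were smaller because the genes varied less. Creb3l3 was nearest to Usp36 (0.078), Gm28048 (0.11) and Naglu (0.11), Cebpa to Gm2a, Ndor1 and Neu1 (0.14 each), and Cebpg to Fam199x, Tm6sf2 (0.11 each) and Acbd3 (0.13). Atf4 was nearest to Mrap (0.21), Hsd17b7 (0.26) and Eif1a (0.28), Atf5 to Xlr3a (0.29), Scfd1 (0.32) and Neurl1b (0.33), and Atf6 to Ubxn4 (0.18) and Selenos (0.20). Cebpb was nearest to Ppp1r2 (0.19), Rngtt (0.26) and Zfp691 (0.32), and Cebpd to Uchl5 (0.19), Nbn (0.20) and Lrrc47 (0.20). Among the tested members the nearest pair was Cebpa and Creb3l3 (0.29), followed by Atf4 and Atf6 (0.44).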

How the data were processed

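Per the file headers, the authors deposited raw counts for each gene. The submitters' processing notes name STAR, HTSeq and mm10. The sources used here do not give versions, the annotation, the strand setting or any removal of PCR copies. Symbols and positions came from GENCODE M21 (mm10), in which 52403 of 52550 mouse IDs were found; a second Ddit3 ID there is not analysed here. Tests on the counts used edgeR 4.0.16 under R 4.3.3 (TMM scaling, filterByExpr with a minimum count of 10, robust quasi-likelihood fit, PiZ/Chop-/- against PiZ, no covariate), with Benjamini-Hochberg adjustment over all 8669 genes and a threshold of 0.05; the script was tested on simulated data. CPM use TMM-scaled library totals, and the SE is the log2 fold change over the square root of F. A count of 0 allows a level of up to 3 reads, for counting error only. Lists (21) were described by counts and medians, with no set test. Members and lists were chosen with earlier results of these data known. Genes were named by a rule: all members, up to 4 called genes of a list, 7 set targets and partners, the 3 nearest profiles of each member (1 gene is not reported here), and overlapping genes; others are marked where named. Alternatives were RLE, upper-quartile or no scaling, DESeq2 1.42.0, limma-voom (limma 3.58.1), other filters, a replicate block and libraries or genes left out.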

Additional observations from a re-analysis of the deposited data

Results flagged for a closer look

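The level in each group of 4 libraries was examined for a single library far from the other 3. Dixon's ratio of the gap to the nearest value over the whole range was set against its critical value. This was done for the members, the summed lists and most other genes described with a level or fold change. Tef, Dbp and Hlf were among the genes not examined, and Elane, with 0 reads in every library, could give no ratio. Of 130 groups 18 held such a library, and 15 of the 18 were PiZ/Chop-/- library 2. Chance gives about 1 in 20 groups where items are chosen without sight of their values. Several genes examined, Egr1, Igfbp1 and Manf among them, were named after their values were seen, and the genes and lists overlap and share libraries. The count therefore cannot be set against that rate.

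Among the members, Atf3 had 47.8 CPM in PiZ/Chop-/- library 2 and 0 to 2.46 CPM in the other 3 of the group, Atf4 had 573 CPM and 132 to 195 CPM, and Cebpd had 13.1 CPM and 5.53 to 6.43 CPM. Among the AP-1 genes, Jun had 160 CPM in that library and 19.8 to 40.3 CPM in the other 3, and Fos had 13.6 CPM and 0 to 0.49 CPM. The summed AP-1 level was 500.2 CPM there, that of immediate early genes 1797 CPM and that of neutrophil markers 87.0 CPM, each above the rest of the group. The summed PAR and NFIL3 level was 118 CPM and that of macrophage markers 859 CPM, each below the rest. Nfil3 by itself was above the rest of the group there. Egr1 had 702 CPM in PiZ/Chop-/- library 2 and 4.91 to 10.1 CPM in the other 3, S100a8 had 62.0 CPM and 3.68 to 5.99 CPM, and S100a9 had 21.6 CPM and 0 to 2.46 CPM. Igfbp1 had 1819 CPM in that library and 209 to 417 CPM in the other 3, and Manf had 164 CPM and 43.7 to 61.1 CPM. In the PiZ group, Mbd6 had 13.6 CPM in library 4 and 4.87 to 6.25 CPM in the other 3, and Nfil3 had 23.7 CPM in library 1 and 6.73 to 8.92 CPM in the other 3. In PiZ library 1 the endothelial markers summed to 364 CPM, against 396 to 402 CPM in the other PiZ libraries.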

How the results depend on the processing

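Ddit3 was called lower in all 18 alternatives, with log2 fold changes of -5.78 to -5.43. Leaving out single libraries, Cebpa ran from 0.21 to 0.52, Cebpb from -0.42 to 0.26, Cebpd from -0.69 to -0.11, Cebpg from -0.46 to -0.19, Atf4 from -1.11 to -0.19, Atf5 from -1.12 to -0.62, Atf6 from -0.89 to -0.49 and Creb3l3 from 0.17 to 0.42; Atf4 without PiZ/Chop-/- library 2 was the only change of call among the members in any alternative. Cebpb, near 0 with all libraries, was -0.087 with library size as the only scaling, -0.051 with limma-voom and -0.055 without PiZ libraries 1 and 4 together. The Atf3 ratio of means ran from -2.77 to 1.68 and the Cebpb to Cebpa difference from -0.74 to 0.11 over the fits with 1 library left out. With 1 library left out Jun ran from -0.10 to 1.34 and Ppp1r15a from -0.11 to 0.53, the lowest being without PiZ/Chop-/- library 2, and Ppp1r15a was -0.010 without PiZ libraries 1 and 4. Medians of lists also moved with 1 library left out: members other than Ddit3 from -0.56 to -0.11, stress-response and CHOP targets from -0.76 to -0.17, upstream regulators from -0.25 to -0.09, ATF6 targets from -0.79 to -0.32, C/EBP targets from -0.14 to 0.04, CREB3L3 targets from 0.19 to 0.33, mitochondrial genes from -0.34 to -0.12 and MAF and CNC factors from 0.08 to 0.52. The cause was not tested.

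Genes called, 89 with all libraries (29 higher and 60 lower), came to 46 to 164 with 1 library left out (12 to 65 higher and 32 to 99 lower). They came to 209 with DESeq2 (95 higher and 114 lower) and to 357 with no filter on low counts (175 higher and 182 lower), and those higher to 19 with library size only and to 18 with limma-voom.

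Replicate numbers did not pair the libraries: same-numbered libraries had correlations of -0.051 to 0.049 in their deviations from the group means, and with the replicate number as a block 76 genes were called, 61 of them shared with the 89, and Cebpb was -0.018. Low counts limit Atf3, Chac1 and Fos, which were not tested, and Cebpd.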

Other observations

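Other liver programs and cell types were read from the same libraries as descriptions. Of 20 genes of the IL-6 and acute-phase response 19 were tested, 2 fell, Lcn2 and Apcs, none rose and 17 were below 0, with a median log2 fold change of -0.43, and of -0.25 once PiZ/Chop-/- library 2 was left out or -0.16 once PiZ library 1 was. Of 16 glucocorticoid and fasting genes 15 were tested, 1 fell, Lcn2 again, none rose and 9 were below 0, with a median of -0.23 that ran from -0.49 without PiZ library 4 to 0.11 without PiZ library 3. Igfbp1, named after its values were seen, was called lower without PiZ/Chop-/- library 2 (-1.98, edgeR adjusted p = 0.00204). Of 13 immediate early genes tested, of 18 listed, 0 were called by edgeR, DESeq2 or limma-voom. Of the 13, 1 had an unadjusted edgeR p below 0.05, as did 13.1% of all genes. Above 0 were 10, with a median of 0.43 that was -0.57 without PiZ/Chop-/- library 2.

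No marker list of a liver cell type held a gene called by edgeR or limma-voom, and DESeq2 called 1 stellate marker lower; without PiZ library 4 edgeR called Col1a1, a fibrillar collagen gene named after its values were seen, lower (-1.26, adjusted p = 0.0344). At an unadjusted edgeR p below 0.05, held by 13.1% of all genes tested, there were 5 Kupffer cell and macrophage markers, all lower. There were also 2 hepatocyte, 1 stellate, 1 endothelial, 1 cholangiocyte and 1 red cell marker, and 0 for neutrophils and lymphocytes. The 12 endothelial markers summed to between 471 and 517 CPM in PiZ/Chop-/- libraries and between 364 and 402 CPM in PiZ libraries, with 9 above 0 and a median of 0.32. Of the 13 stellate cell and fibroblast markers 9 were tested and 8 were below 0, with a median of -0.28, and their sum ran from 347 to 506 CPM in PiZ/Chop-/- libraries and from 480 to 576 CPM in PiZ libraries. Of 12 hepatocyte markers 11 were tested, with a median of 0.04 (-0.04 when scaled by library size alone, and -0.01 to 0.18 with 1 library left out). Few markers of other cells were tested, and their medians moved with single libraries. The 2 neutrophil markers tested of 10 had a median of 0.05, which was -1.99 without PiZ/Chop-/- library 2. For the 3 cholangiocyte markers tested of 10 it was 0.21, and -0.07 without that library. For the 5 red cell markers tested of 8 it was 0.38, and 0.75 without that library and -0.61 without PiZ/Chop-/- library 3. The 1 lymphocyte marker tested of 14 was at -0.20, and at 0.12 without PiZ/Chop-/- library 2.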
